A study of Mus musculus with 2 samples.

Results

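Intermediate erythroblasts are red cell precursors that have begun to fill with hemoglobin transcripts but still carry a broad transcriptome. Here they were taken as cell barcodes in which the 4 adult globin genes Hba-a1, Hba-a2, Hbb-bs and Hbb-bt made up 20% to under 60% of the unique molecular identifiers (UMIs, 1 per captured transcript). The barcodes also had at least 200 genes, at most 10% mitochondrial UMIs, S100a8 and S100a9 under 2% of UMIs, and no more than 1 UMI of Cd79a and Cd79b together or of Cd3d, Cd3e and Cd3g together. The members were thus selected on measured globin, mitochondrial, granulocyte and lymphocyte transcripts, which are given only as a description. This gave 1081 barcodes of 12259 that passed the gene and mitochondrial limits and of 17045 deposited. The whole marrow of C57BL/6 mice aged 6 months, labelled with atherosclerosis, was profiled in droplets with 10x Genomics 3′ chemistry. Both groups were Apoe(-/-), lacking the apolipoprotein that clears cholesterol-rich particles, and they differed in Itgb3, the gene of integrin beta 3. The Apoe(-/-) Itgb3(-/-) library, called the null library below, held 274 of the erythroblasts, and the Apoe(-/-) Itgb3(+/+) library, called the control library, held 807. With 1 library per genotype there is no replicate and no test between genotypes, every interval covers counting error only, and how many animals went into a library is not stated in the labels.

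In the marrow, erythropoietin and the factors GATA1 and KLF1 drive precursors through a few last divisions. Meanwhile heme enzymes, globins and the membrane skeleton build up, ribosome and replication genes decline, and the nucleus is finally expelled. Much of this takes place around a central macrophage to which the erythroblasts adhere, and interferons are known to act on erythroid precursors as well as on leukocytes.

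The erythroid identity of the barcodes was checked with genes that the selection did not use. Alas2, the first enzyme of erythroid heme synthesis, had a UMI in 99.3% of the null and 99.5% of the control barcodes. Slc4a1, the band 3 anion exchanger, was found in 97.4% and 96.7%. Of 11 such identity genes, 0 UMIs were found in 0 of the 274 and 1 of the 807 barcodes. After thinning each barcode to 500 UMIs outside the globins, 3 or more UMIs of 15 heme synthesis genes were present in 90.8% and 93.9% of erythroblasts. Among B cell barcodes (5 or more UMIs of Cd79a and Cd79b, median depths of 5085.5 and 2352.5 UMIs), where such UMIs are a background of free RNA, the shares were 0.193% and 1.07%. Unthinned, they were 99.6% and 99.8% of erythroblasts and 40.7% and 27.3% of B cell barcodes. Levels below are UMIs per 1000000 UMIs outside the 4 globins, written CPM. Hba-a1 was at 130945 in the null and 126032 in the control library, and Hbb-bs at 391328 and 350397. Hbb-bt, the other adult beta gene, was 1.43-fold higher in the null library, and Hba-a2 1.14-fold lower. The 2 alpha genes are near-identical copies, so their split is uncertain, and that between the 2 beta genes may be as well. Embryonic globins had 4 and 13 UMIs in all.

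The targeted gene was close to the detection limit in these cells. Itgb3 had 0 UMIs of 1666942 in the null library, which allows up to 1.80 CPM, and 10 UMIs of 3504577 in the control library. Its partners were also rare, with 2 and 11 UMIs of Itgav and 3 and 17 of Itga2b. Apoe, labelled as deleted in both genotypes, had 55 and 1120 UMIs. Summed over Itgb3, Itgav, Itga2b and Apoe, UMIs numbered 60 and 1158, and 8 and 184 without the mixed barcodes defined below. Reads from the 3′ end check a deletion only where it removes that end, and which part of either gene was removed is not stated in the labels.

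The libraries differed in depth and in the RNA of other cells that the erythroblast barcodes carried. The null erythroblasts had a median of 10205 UMIs and 1558.5 genes, and the control erythroblasts 6582 UMIs and 1483 genes, with 1.28% and 1.88% mitochondrial UMIs. Barcodes with 10 or more UMIs of a marker list of another cell type or of Saa3, called mixed below, made up 11 of 274 (4.01%, exact 95% interval 2.02 to 7.07) and 121 of 807 (15%, 12.6 to 17.6). In the control library 105 of them held monocyte and macrophage markers and 71 held markers of resident macrophages, against 6 and 2 in the null library. Markers of T and NK cells were reached in 7 and 5 barcodes, of basophils in 0 and 3, of stromal cells in 0 and 2, and of megakaryocytes and B cells in 0 and 0. This count left Cd74, Igkc and Ighm out of the B cell list and S100a8, S100a9 and Lcn2 out of the neutrophil list. The selection also capped Cd79a and Cd79b, so the count says little of B cell RNA. The full B cell list had 450 and 876 UMIs. Summed over all members, monocyte and macrophage markers reached 314 CPM in the null and 2809 in the control library, resident macrophage markers 31.8 and 1062, neutrophil markers 1001 and 1420, and T and NK markers 496 and 104. The barcodes with the highest Scrublet scores, 71 of 2974 null and 690 of 9285 control barcodes, were taken as doublets. Those numbers were set by an assumed rate of 0.8% per 1000 barcodes, so they are not a measured difference between the libraries. They included 1 and 32 of the erythroblasts, and the values below keep these unless stated. The libraries shared 11 barcode sequences, none of them among these erythroblasts. The part of depth and of mixed barcodes in the differences below was not tested beyond the values given.

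The erythroblasts made up 9.21% of the null barcodes that passed the limits (8.20 to 10.3) and 8.69% of the control barcodes (8.13 to 9.28), a ratio of 1.06 (0.930 to 1.21). This near-equal share depended on the limits for other lineages. Before those limits, 297 null and 1163 control barcodes lay between 20% and 60% hemoglobin, 9.99% and 12.5%. The S100a8 and S100a9 limit then took out 10 and 193 of them, the Cd79 limit 14 and 151, and the Cd3 limit 0 and 29, with some barcodes outside more than 1 limit. The neighbouring stages had unequal shares. Late erythroblasts, at 60% hemoglobin or more, were 20.3% and 11.6% of barcodes (ratio 1.76, 1.60 to 1.92), and low-hemoglobin erythroid barcodes, under 20% with 3 or more UMIs of a set of erythroid genes that includes Klf1, Car1, Epor and Ermap, were 3.40% and 5.03% (0.675, 0.547 to 0.834). The late erythroblasts differed in depth, with medians of 9851 UMIs and 526 genes in the null and 4981 UMIs and 399 genes in the control library. In both libraries the lower quartile of their genes lay just above the minimum of 200 genes. The late share thus covers only barcodes above that minimum, and the part of this limit and of depth in the late ratio was not tested. Within the intermediate range the null erythroblasts more often had a high hemoglobin share. That share chose the members, so these values are a description. RNA of other cells enters it too, mixed barcodes being 4.01% of the null and 15% of the control erythroblasts, and its part was not tested. The bin of 50 to 60% hemoglobin held 34.7% of them against 21.9% of the control erythroblasts (1.58, 1.28 to 1.95), and the bin of 20 to 30% held 14.2% against 20.6% (0.692, 0.502 to 0.954). Just inside the lower limit, 5 and 24 barcodes had 20 to 22% hemoglobin, and just outside it 9 and 35 had 18 to 20%. At the upper limit, 16 and 44 barcodes lay at 58 to 60% and 17 and 40 at 60 to 62%.

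**Figure D1:**
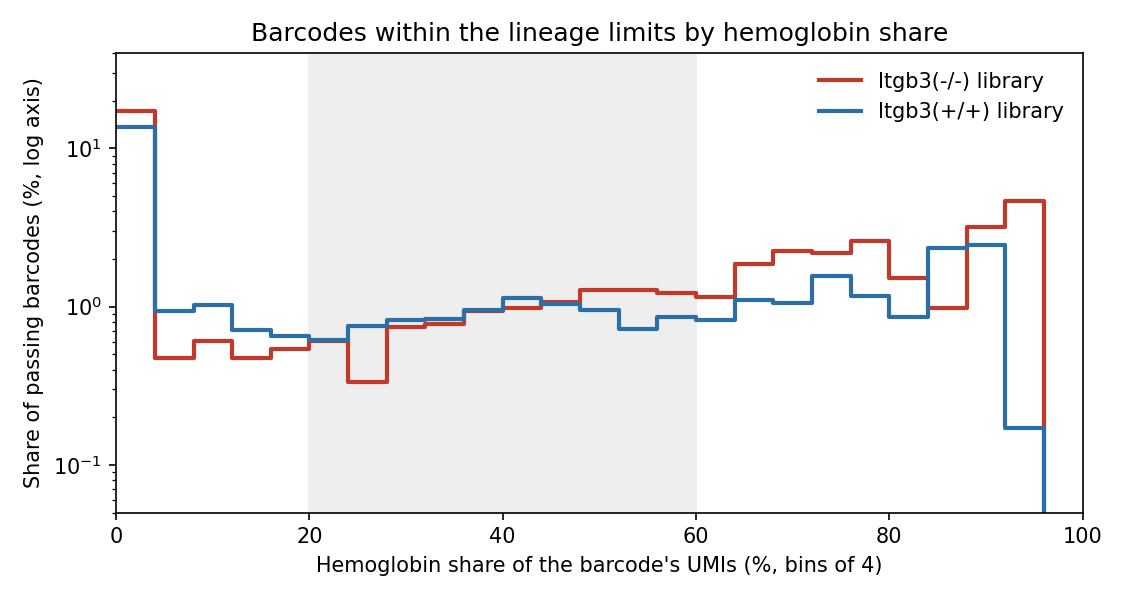
Share of all passing barcodes (%, log axis) that lay within the lineage limits, in bins of 4% hemoglobin (x axis), for the null (red) and control (blue) library. The grey band marks the 20 to 60% range of the intermediate erythroblasts, in which both libraries held about the same share, 9.21% and 8.69%.

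Along the hemoglobin axis many genes differed in the same direction in both libraries. Without mixed barcodes, 2622 genes in the null and 3101 in the control library had enough UMIs to set the 50 to 60% bin against the 20 to 30% bin. Of these, 16.6% and 17.0% were 2-fold or more higher in the upper bin, and 15.8% and 23.4% were 2-fold or more lower. Among the 2271 genes that passed in both libraries, 194 were higher in both (63.6% of those higher in the null and 46.1% of those higher in the control library), 268 were lower in both (70.5% and 65.0%) and 5 went opposite ways. Xpo7, an exportin that moves nuclear proteins out during enucleation, went from 20.4 to 458 CPM in the null library and from 34.4 to 889 in the control library. Slfn14, a ribosome-associated endonuclease, went from 26.3 to 312 and from 51.5 to 683. Other genes leading the upper bin in both were Sowaha, Tcp11l2, Tbcel, Tmcc2, Fam220a, the ubiquitin-conjugating enzyme gene Ube2b, and Bpgm, which makes the regulator of oxygen release 2,3-bisphosphoglycerate. Car1, an early carbonic anhydrase, led the genes of the lower bin, at 318 against 10.1 CPM in the null and 972 against 124 in the control library. The ribosomal proteins Rps2, Rps18, Rpl12, Rpl36a and Rpl32, the elongation factor Eef1a1, the purine enzyme Paics and the histone chaperone Nasp followed it.

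Gene groups showed the order of these steps. The 83 cytosolic ribosomal protein genes went from 257244 to 86622 CPM across the 4 bins of the null library and from 188067 to 56490 across those of the control library. DNA replication genes went from 7102 to 3351 and from 9998 to 3772, whereas mitosis genes peaked at 40 to 50% hemoglobin in both libraries, at 30429 and 28851. The skeleton and surface genes of the red cell went from 22472 to 39006 in the null and from 28870 to 59612 in the control library. Heme synthesis genes went from 9881 to 13319 and from 13026 to 20779, and genes of terminal maturation from 6787 to 16705 and from 6096 to 16489. Membrane and heme genes thus differed more between the lowest and highest bin in the control library, while the maturation genes ended at nearly the same level. These bins split the members by the measure that chose them and share its depth, so they are given as a description.

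**Figure D2:**
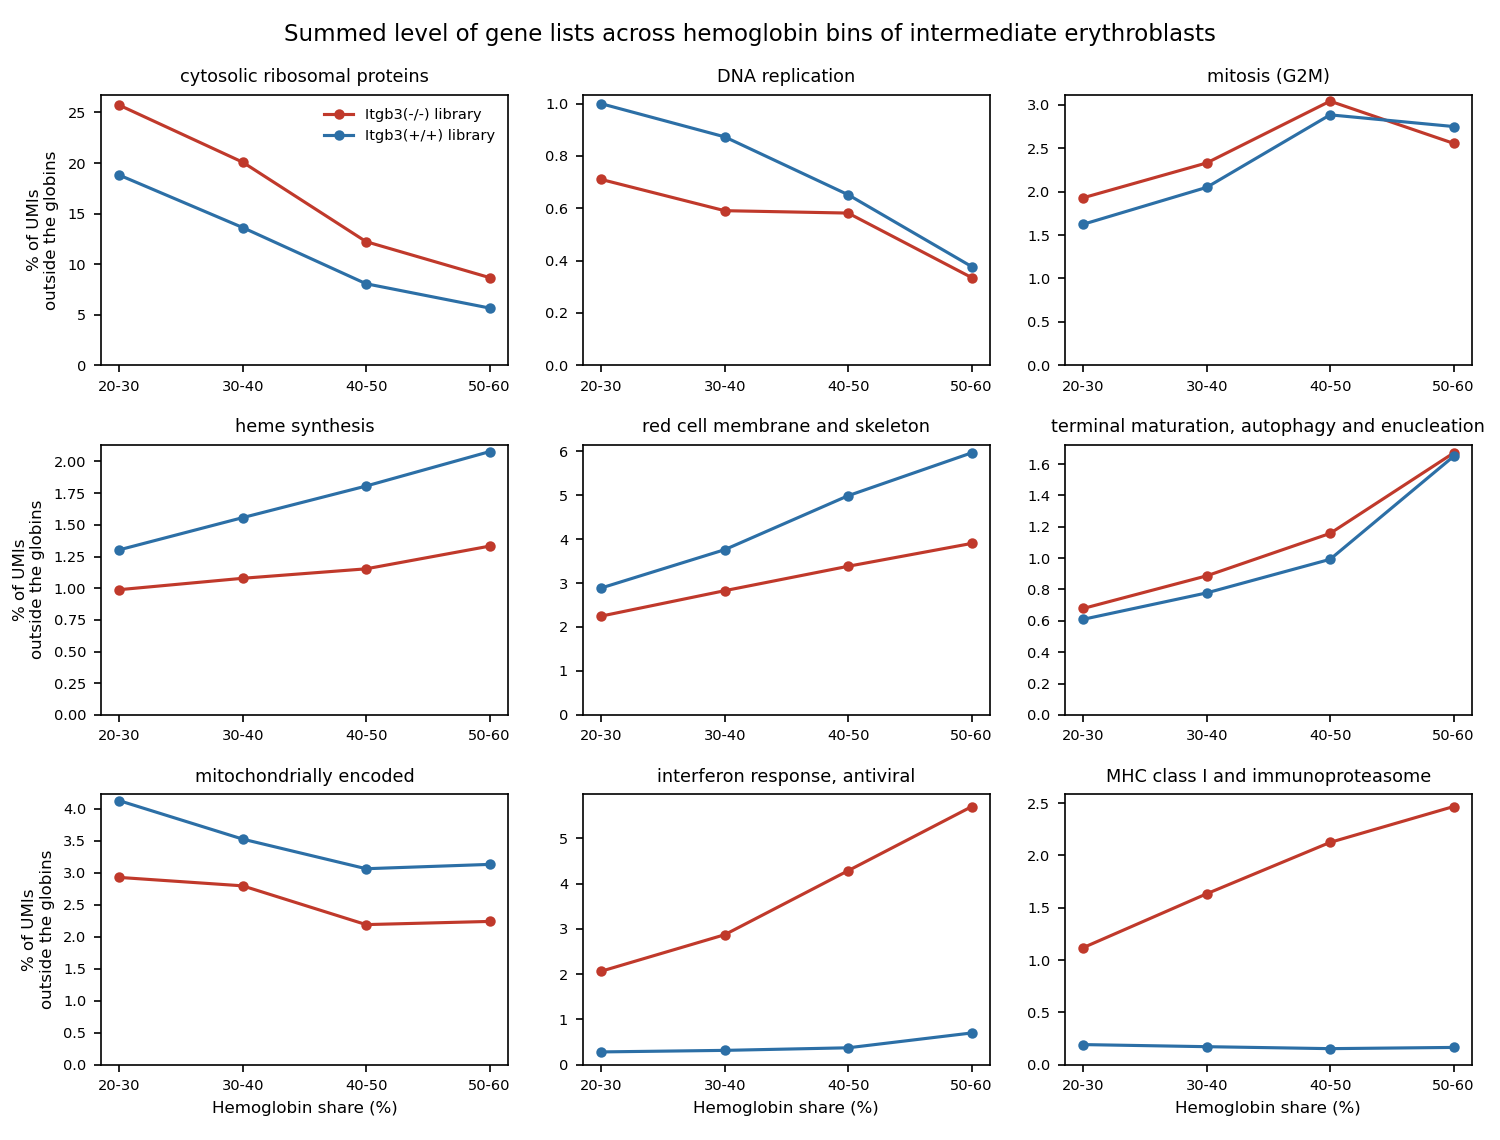
Summed level of 9 gene lists (% of UMIs outside the globins, y axes from 0) in the 4 hemoglobin bins of intermediate erythroblasts (x axes), null library in red and control library in blue. Ribosomal protein genes decline in both libraries from 20 to 60% hemoglobin, and the antiviral interferon list is higher in the null library in each of the 4 bins.

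Summed over all members, 3208 genes met the level minimum, 30 UMIs in total and 50 CPM in 1 library or more. Of these, 416 (13%) were 2-fold or more higher in the null library and 806 (25.1%) 2-fold or more lower. The balance depends on the scaling. TMM factors, which assume that most genes are equal, gave 845 higher and 385 lower, and moved the median log2 ratio of the 7234 genes with 30 UMIs from -0.58 to -0.06. Over the 3208 genes at the level minimum the median was -0.23 before that shift. Gene lists are therefore given beside the all-gene median of -0.58, with the value under TMM where its sign or count changes. Their counts are to be read beside 13% higher and 25.1% lower of all genes, and under TMM beside 845 and 385 of 3133.

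Interferon-induced genes were higher in the null erythroblasts, in nearly every barcode and at every hemoglobin bin. Of 30 antiviral genes of this kind at the level minimum, 28 were 2-fold higher and 0 lower, with a median log2 ratio of 3.54 over the 33 with 30 UMIs. Without mixed barcodes the median was 4.19, with 27 of 27 higher. Isg15, a ubiquitin-like protein attached to targets during the antiviral response (ENSMUSG00000035692, chromosome 4 from 156199424 to 156200818), was at 9346 CPM in the null and 803 in the control library, 11.6-fold higher (11.2 to 12.1). Rsad2, the viperin gene (chromosome 12 from 26442746 to 26456452), was at 4991 and 635 (7.86-fold), and Ifitm3, which hinders virus entry at the membrane, at 9938 and 486 (20.5-fold). Ifit1, which binds viral RNA caps (chromosome 19 from 34640871 to 34650009), had 1817 and 95 UMIs, 40.2-fold higher. Each of these 4 genes was higher in each successive hemoglobin bin of the null library, Ifit1 going from 412 to 2076 CPM. The interferon-induced Ifi44 had 130 UMIs in 55 null barcodes and 0 in the control library, at least 91.1-fold higher against a floor of 3 UMIs. The exceptions were small membrane genes: Ifitm2 was at 99.0 and 89.6 CPM, with 88.5% of its null UMIs in 5 barcodes. Ifi27l2a had 100 and 396 UMIs, 88.0% of the null ones in 5 barcodes, and 25 and 23 without mixed barcodes.

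The sequences upstream of these genes are shown because the interferon-stimulated response element, a site bound by interferon-activated transcription factors, can be looked for in them directly. Its core was searched as GAAA, any 2 bases and GAAA, on both strands in RefSeq promoters of GRCm38.p6, 250 bases before to 50 after the start. The core was present in 3.99% of 27025 genes with a promoter. Among the antiviral list 14 of 25 matched genes (56.0%) held it, and among the list of interferon gamma GTPases and targets 11 of 16 (68.8%). The 120 bases before the start of 4 genes read as follows, with the cores in capitals, which overlap in Isg15 (3 cores) and Gbp3 (2 cores).
Isg15: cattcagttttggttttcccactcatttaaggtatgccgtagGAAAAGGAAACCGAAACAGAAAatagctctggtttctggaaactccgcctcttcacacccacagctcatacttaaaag
Ifit1: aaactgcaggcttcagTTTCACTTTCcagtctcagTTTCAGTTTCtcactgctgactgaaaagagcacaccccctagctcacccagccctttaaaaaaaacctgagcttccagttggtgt
Rsad2: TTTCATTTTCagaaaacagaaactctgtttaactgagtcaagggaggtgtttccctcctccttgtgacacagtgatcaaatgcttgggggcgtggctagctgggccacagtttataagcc
Gbp3: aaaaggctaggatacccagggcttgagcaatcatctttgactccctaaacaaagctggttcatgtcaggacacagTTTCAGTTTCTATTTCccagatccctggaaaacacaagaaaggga
They lie at chr4:156200819-156200938, minus strand for Isg15, chr19:34640769-34640888, plus strand for Ifit1, chr12:26456453-26456572, minus strand for Rsad2 and chr3:142559924-142560043, plus strand for Gbp3 in GRCm38.p6, each ending at the base before the RefSeq start. The stretches shown all hold a core, but those of other genes higher in the null library did not always. The 120 bases of Ifitm3, Ifi44, H2-T22, Cd274, Cxcl10 and Ifi47 held 0 cores, as did those of the other Gbp3 start, chr3:142560236-142560355. These 120 bases are only part of the promoter searched for the shares above, so a core may lie in the rest. In the full promoter, 8 of 14 matched genes of the 15 highest, listed below, held a core. A match is a description of these letters, not a measured binding site.

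Sensors and signalling genes of the pathway differed among themselves. Of the cytosolic RNA sensors, Ddx58 (RIG-I) was 23.8-fold higher (17.5 to 33.2), Dhx58 (LGP2) 13.2-fold and Ifih1 (MDA5) 7.25-fold. Zbp1, a sensor of Z-form nucleic acid, had 291 UMIs against 22, and 200 against 0 without mixed barcodes. The RNA-activated synthetases followed, with Oas2 at 56.2-fold, Oasl2 at 31.7-fold and Oas3 at 3.86-fold. Of 9 receptors, kinases and factors at the level minimum, 6 were 2-fold higher and 0 lower, beside 13% and 25.1% of all genes. The median over 16 was 0.78. Stat2 was at 460.1 against 29.1 CPM (15.8-fold), Irf7 at 1052 against 91.6 (11.5-fold) and Ifnar2, a chain of the type I receptor, at 399.5 against 65.1 (6.14-fold). The kinase Jak1 was near 1, at 158 against 168, and Ifngr1 and Ifngr2, which form the interferon gamma receptor, had only 29 and 13 UMIs in the null library against 143 and 59. No UMI of 7 interferon ligand genes, Ifng and Ifnb1 among them, was found in the erythroblasts of either library.

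The guanylate-binding and immunity-related GTPases, textbook targets of interferon gamma, gave the largest ratios of any list. Of 12 such genes and related targets at the level minimum, 11 were 2-fold higher, and the median log2 ratio over 17 was 4.66. Gbp2 (ENSMUSG00000028270, chromosome 3 from 142620602 to 142638008) had 690 UMIs in 160 null barcodes and 18 in 10 control barcodes, 80.6-fold higher (50.6 to 137). Gbp3 had 507 and 14 UMIs, and 476 and 1 without mixed barcodes. Cd274, the gene of PD-L1, a ligand that restrains T cells, had 305 UMIs in 110 null barcodes and 5 in 3 control barcodes (128-fold, 54.4 to 398). The chemokine gene Cxcl10 was at 684 and 12.8 CPM and was found in 103 and 13 barcodes. Ifi47 was at 970.0 and 19.7; Olfr56, listed among the highest genes with 260 and 6 UMIs, spans the Ifi47 locus on the same strand, so their reads cannot be kept apart with certainty. The Gbp genes and the pair Apol9a and Apol9b are close relatives whose reads could also be split uncertainly. The 1 gene of the list that was lower was Irf8, a myeloid factor, with 48 and 290 UMIs. Without mixed barcodes it had 6 and 88 and was under the level minimum, and 11 of 11 genes were higher.

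Most transcripts of MHC class I antigen presentation were higher in the null library. Of 14 genes at the level minimum 12 were 2-fold higher and 0 lower, with a median of 3.15, and 3.75 without mixed barcodes. The nonclassical gene H2-T22 was at 1428 against 23.7 CPM (60.3-fold, 48.4 to 76.0). The light chain B2m was at 4843 against 527 (9.19-fold), the heavy chain H2-D1 at 4772 against 311 (15.4-fold) and H2-K1 at 704 against 164 (4.30-fold). The peptide transporter Tap1 was 26.4-fold and its partner tapasin, Tapbp, 13.3-fold higher. The immunoproteasome subunits were uneven: Psmb10 was 20.3-fold, Psmb9 8.90-fold and Psmb8 1.45-fold higher. The sequences of class I genes are alike, so counts of single H2 genes are uncertain.

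The difference held barcode by barcode. In the null library the antiviral list took a median of 3.98% of the UMIs outside the globins of a barcode, with a range from 0.0496% to 17.9%, and in the control library 0.222%, from 0% to 6.95%. The middle 90% of barcodes ran from 1.17% to 9.13% and from 0.0424% to 1.59%, so the libraries overlapped only in the tails. After thinning to 500 UMIs, 98.5% of the null erythroblasts (96.3 to 99.6) reached 3 UMIs of that list, and 25.6% (22.6 to 28.7) of the control erythroblasts did. Without thinning 100% and 88.8% reached it, and thinning left out 2 and 9 shallower barcodes. B cell barcodes, treated alike, gave 38.2% and 7.11% (99.4% and 51.2% without thinning), with median depths of 5082.5 and 2343.5 UMIs outside the globins against 5467 and 3738 in the erythroblasts. For the interferon gamma list the erythroblasts gave 43.0% and 0.627%, and for MHC class I 96.7% and 7.77%. Without thinning these were 95.6% and 12.5%, and 100% and 68.4%. Across the 4 hemoglobin bins the summed antiviral list went from 20624 to 56971 CPM in the null and from 2799 to 6983 in the control library. The MHC class I list went from 11183 to 24680 in the null library and was 1913 in the lowest and 1641 in the highest control bin.

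**Figure D3:**
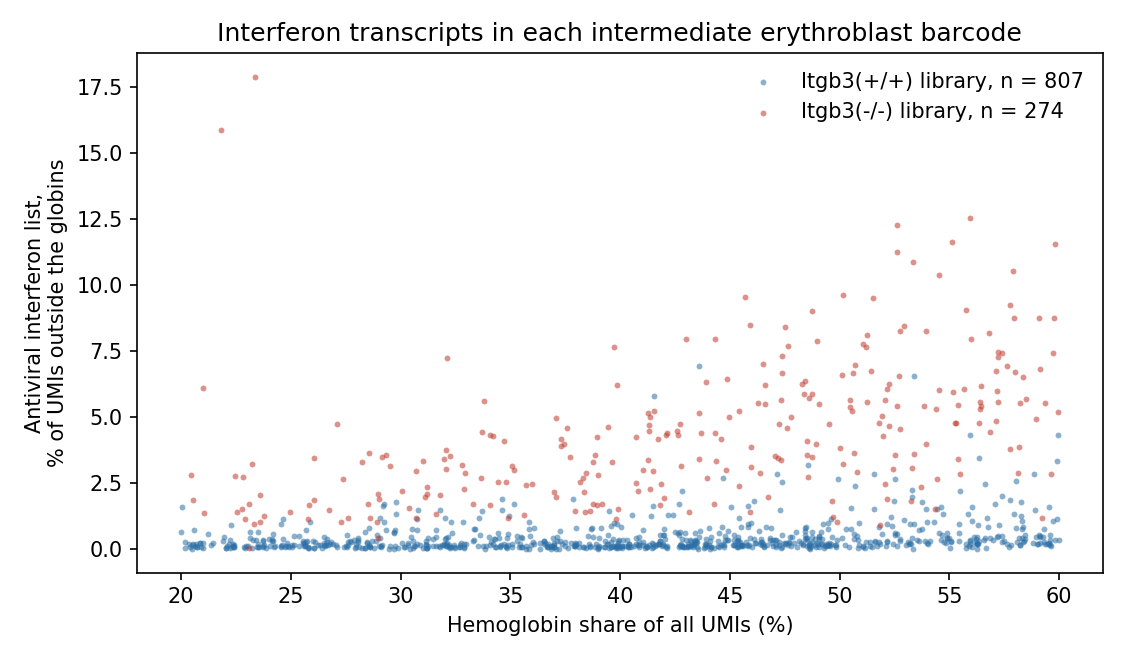
Each point is 1 intermediate erythroblast barcode, with its hemoglobin share of all UMIs (%) on the x axis and the share of the antiviral interferon list in its UMIs outside the globins (%) on the y axis. Null barcodes (red, n = 274) have a median of 3.98% and control barcodes (blue, n = 807) of 0.222%, and the null values are higher towards 60% hemoglobin.

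Of 13 heme synthesis genes at the level minimum, 0 were 2-fold higher and 4 lower in the null library, near the 25.1% lower among all genes. The median log2 ratio of -0.66 compares with -0.58 for all genes with 30 UMIs and -0.23 for those at the level minimum. Without mixed barcodes it was -0.76, beside -0.49 for all genes. Under TMM the median was -0.15 with 2 genes lower. Cpox, which oxidises coproporphyrinogen in the mitochondrion (ENSMUSG00000022742, chromosome 16 from 58670292 to 58717636), was at 479 in the null and 1946 CPM in the control library, 4.06-fold lower (3.77 to 4.37). Slc25a38, the mitochondrial glycine carrier, was at 67.2 and 282 (4.20-fold, 3.45 to 5.15), and Ppox, the next enzyme after Cpox, at 175 and 485 (2.77-fold). Alas2 was at 1933 and 2384, 1.23-fold lower. Fech, which inserts the iron, was 1.70-fold lower, and the transporter Abcb10 was near 1 at 769 and 787.

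Iron genes had a median of -0.77, beside -0.58 for all genes. At the level minimum 0 of 11 were 2-fold higher and 5 lower, beside 13% and 25.1% of all genes. Under TMM the median was -0.26 with 2 higher and 2 lower. The transferrin receptor gene Tfrc was at 597 and 1295 CPM (2.17-fold lower, 2.03 to 2.33). Slc11a2, which carries iron out of the endosome, was 2.89-fold lower and the mitochondrial importer Slc25a37 1.73-fold. Ncoa4, which delivers ferritin for breakdown, was 2.59-fold lower, the ferritin light chain gene Ftl1 2.49-fold and the heavy chain gene Fth1 1.68-fold. Slc40a1, the iron exporter ferroportin, had a log2 ratio of -2.66, and -1.54 without mixed barcodes, macrophages being known to express it too. Iscu, the scaffold of iron-sulfur clusters, was 1.47-fold higher.

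Red cell surface and skeleton genes split into members that were far lower and members that were level or higher. Of 25 at the level minimum 11 were 2-fold lower and 1 higher, beside 25.1% and 13% of all genes. The median was -0.94, and under TMM 5 were lower and 3 higher at -0.42. Epb42, protein 4.2, which ties band 3 to the skeleton (ENSMUSG00000023216, chromosome 2 from 121017891 to 121037072), was at 72.6 in the null and 595 CPM in the control library, 8.19-fold lower (6.82 to 9.92), and had a UMI in 33.2% and 85.5% of barcodes. Smim1, which carries the Vel blood group, was at 46.8 and 319.6 (6.83-fold lower, 5.43 to 8.71). Icam4, the Landsteiner-Wiener blood group protein and an integrin ligand, was at 131 and 582 (4.43-fold, 3.85 to 5.12). Sptb, a spectrin of the membrane skeleton, was 1.59-fold lower. Rhd was at 1024 and 2736, 2.67-fold lower, while its partner Rhag was at 1548 and 671, 2.31-fold higher (2.18 to 2.44). Band 3 itself, Slc4a1, was at 4396 and 4038, 1.09-fold higher. The don't-eat-me signal Cd47 was 1.64-fold higher. Car2, the carbonic anhydrase of the mature cell, was 2.35-fold lower.

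Promoters of 2 genes that went opposite ways are shown to set them beside the interferon genes. GATA motifs, searched as AGATAA and TGATAA on both strands, were present in the promoters of 21.0% of genes. They were in 7 of 17 matched genes of the red cell membrane list (41.2%), to which Rhag belongs. In the heme synthesis list, to which Cpox belongs, they were in 3 of 13 (23.1%). The interferon gamma list held them in 7 of 16 matched genes (43.8%), so they did not set the membrane list apart from it. In the antiviral list 3 of 25 matched genes held them, and in the MHC class I list 1 of 16. Neither the Rhag nor the Cpox stretch held the interferon core, and each held 1 GATA motif, in capitals as read on this strand.
Rhag: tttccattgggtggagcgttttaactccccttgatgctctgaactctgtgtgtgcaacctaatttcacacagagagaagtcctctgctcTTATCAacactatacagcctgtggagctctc
Cpox: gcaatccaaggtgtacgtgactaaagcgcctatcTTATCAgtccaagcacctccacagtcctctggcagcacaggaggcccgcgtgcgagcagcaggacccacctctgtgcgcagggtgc
They lie at chr17:40811029-40811148, plus strand for Rhag and chr16:58670088-58670207, plus strand for Cpox in GRCm38.p6. Rhag was higher and Cpox lower in the null library.

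Adhesion genes of the erythroblast, which hold it to the central macrophage, had a median of -1.59, beside -0.58 for all genes. At the level minimum 4 of 5 were 2-fold lower and 0 higher, beside 25.1% and 13% of all genes. Under TMM 3 of 5 were lower, beside 385 of 3133 genes, and the median was -1.07, beside -0.06. Icam4, described above, is one of the adhesion genes. Tln1, the talin that activates integrins, was at 44.4 and 321 CPM (7.22-fold lower, 5.71 to 9.27), Fermt3, the kindlin of blood cells, was 3.82-fold lower and Itga4, a chain of the receptor for Vcam1, 2.04-fold lower. Itgb1 was 1.40-fold lower. Without mixed barcodes the 4 were still 2-fold lower and the median was -1.22. Marker levels of the other cells stayed unequal there, at 8.40 and 171 CPM for resident macrophages and 25.9 and 208 for monocytes and macrophages, and their part in this group was not tested.

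Transcription factors of the erythroid programme were lower by their median, -1.26, beside -0.58 for all genes. At the level minimum 8 of 15 were 2-fold lower and 0 higher, beside 25.1% and 13% of all genes. Under TMM the median was -0.75, beside -0.06 for all genes. The TMM counts, 2 lower and 2 higher, had no direction, beside 385 lower and 845 higher of 3133 genes. Klf1 was at 317 and 854 CPM (2.70-fold lower, 2.46 to 2.96) and was detected in 65.7% and 82.7% of barcodes. Gata1 was at 82.2 and 235 (2.85-fold, 2.38 to 3.45), Tal1 at 133 and 562 (4.24-fold) and Lyl1, its relative, at 19.8 and 154 (7.78-fold, 5.47 to 11.4). Nfe2, Zfpm1 (the GATA1 cofactor FOG1) and E2f4 were between 2.21-fold and 2.66-fold lower. Against this direction, E2f2, which acts in the last divisions, was at 1606 and 812 (1.98-fold higher) and the repressor gene Gfi1b 1.32-fold higher. Corepressor and fetal globin regulators were rare in the null library, with 1 and 100 UMIs of Cbfa2t3 (ETO2) and 4 and 98 of Bcl11a.

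Erythropoietin signalling genes were mixed. The receptor gene Epor was at 233 and 321 CPM, 1.37-fold lower, whereas the kinase Jak2 was at 221 and 78.5 (2.82-fold higher, 2.41 to 3.31) and Pim1, a survival kinase induced by JAK and STAT signals, at 824 and 253 (3.26-fold higher, 2.99 to 3.55). The STAT5 target Cish had 6 and 60 UMIs, and Bcl2l1, the survival gene BCL-XL, was 1.04-fold higher with an interval spanning 1 (0.893 to 1.21). Kit, a receptor of earlier stages, had 0 and 11 UMIs. The median of the 9 genes with 30 UMIs, -0.46, was 0.06 under TMM. Without mixed barcodes 7 genes had 30 UMIs, with a median of 0.54, so the list has no stable direction.

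Replication genes did not stand apart from all genes by their counts over all members. Of 21 replication genes at the level minimum 4 were 2-fold lower and 0 higher, no larger a share than the 25.1% of all genes, with a median of -0.56 beside -0.58 for all genes. Under TMM the median was -0.05, with 3 lower and 1 higher. Those 4 were Dut, which removes dUTP (73.2 and 295 CPM, 4.03-fold lower, 3.34 to 4.90), the primase gene Prim1 (3.37-fold), thymidylate synthase, Tyms (3.17-fold), and the helicase gene Mcm2 (2.68-fold). The sliding clamp gene Pcna was 1.09-fold lower, the helicase gene Mcm6 1.01-fold and the flap endonuclease gene Fen1 1.04-fold. Without mixed barcodes 7 of 21 replication genes were 2-fold lower and 0 higher, beside 25.8% and 13.6% of all genes. Mitosis genes had a median of 0.29, beside -0.58 for all genes. At the level minimum 1 of 22 was 2-fold higher and 0 lower, beside 13% and 25.1% of all genes. Of the 22 ratio intervals 13 lay above 1, 6 below and 3 spanned it. Under TMM 8 were 2-fold higher, and the median ran from 0.15 with equal weight for the hemoglobin bins to 0.81 under TMM. Ckap2, a spindle protein gene, was 2.63-fold higher (2.33 to 2.96), Cenpa, the centromeric histone, 1.75-fold and Ccnb2 1.59-fold, while Mki67 was 1.15-fold and Top2a 1.38-fold lower. By thinned barcode, 82.7% of null and 87.3% of control erythroblasts reached 3 UMIs of the mitosis list, and 38.2% and 50.6% of the replication list. Without thinning these were 96.7% and 95%, and 83.6% and 82.2%. Of 9 genes of cell cycle exit and D cyclins at the level minimum, 3 were 2-fold higher and 1 lower, beside 13% and 25.1% of all genes. The higher ones were Ccng2, an atypical cyclin gene (128 and 13.1 CPM, 9.78-fold, 7.08 to 13.8), the antiproliferative Btg1 (2.64-fold) and Cdkn1b, which encodes p27 (2.03-fold). Btg2 was 2.14-fold lower.

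Genes of terminal maturation went both ways, with 10 ratio intervals above 1, 7 below and 3 spanning it and a median of 0.15 (0.66 under TMM). Of 17 at the level minimum 3 were 2-fold higher and 1 lower, the first near the 13% of all genes, and under TMM 7 and 1. The autophagy kinase gene Ulk1 was at 156 in the null and 37.1 CPM in the control library (4.20-fold higher, 3.39 to 5.23). Ube2h, a ubiquitin-conjugating enzyme of maturing erythroblasts, was 2.69-fold higher and the kinase gene Riok3 2.03-fold. The ubiquitin genes were otherwise uneven, with Ubb 1.75-fold higher and Ubac1 lower, at 386 and 1198 CPM. The mitophagy receptor Bnip3l was near 1, at 707 and 670.0. Xpo7, described above across the hemoglobin bins, was 1.80-fold lower over all members.

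Stress and death genes differed one by one. In the integrated stress response, the gene of the heme-regulated kinase HRI, Eif2ak1, was at 851 and 465 CPM (1.83-fold higher). Its downstream factor Ddit3 (CHOP) was 2.72-fold higher (2.36 to 3.14), Trib3 had 38 and 2 UMIs, and Atf4, regulated mainly in translation, was 2.45-fold lower. Of the p53 and apoptosis list 3 of 7 at the level minimum were 2-fold higher and 1 lower, beside 13% and 25.1% of all genes. Under TMM these were 5 of 9 and 0. The p53-induced Trp53inp1 was at 240.0 and 33.7 (7.13-fold, 5.79 to 8.83), the BH3-only gene Bbc3 (PUMA) at 132 and 23.4 (5.64-fold, 4.36 to 7.36) and Bak1 2.25-fold higher, while the survival gene Mcl1 was 2.03-fold lower. The p53 target Cdkn1a had 19 and 20 UMIs, and Mdm2 lay near 1 at 63.6 and 61.3. Heat shock genes were 2-fold lower in 3 of 7, beside 25.1% of all genes (1 lower and 1 higher of 6 under TMM). Hsp90ab1 was 3.18-fold and Hsp90aa1 2.80-fold lower, and Hsph1 had 0 and 28 UMIs.

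Antioxidant genes were 2-fold lower in 5 of 15 and higher in 0, beside 25.1% and 13% of all genes. Their median was -0.82, beside -0.58 for all genes. Under TMM 2 of 14 were lower, beside 385 of 3133 genes, and the median was -0.31, beside -0.06. Blvrb, the biliverdin reductase of erythroid cells, was at 1392 and 4444 CPM (3.19-fold lower, 3.06 to 3.34) and Gpx4, which protects membrane lipids, 2.15-fold lower. The abundant Gpx1 was 1.12-fold lower. Nqo1 had 8 and 197 UMIs. Hmox1, heme oxygenase, had 118 and 923 UMIs, and 5 and 222 without mixed barcodes, 24.2-fold lower.

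The mitochondrially encoded genes were part of the selection, through its upper limit, and their levels are a description. The complex I subunit mt-Nd2 was at 188 CPM in the null and 763 in the control library, and the oxidase subunit mt-Co1 at 8357 and 9008. The cytosolic ribosomal proteins, which the selection did not use, had 0 of 79 past 2-fold, beside 13% higher and 25.1% lower of all genes. Their median was 0.40, beside -0.58 for all genes. Under TMM 28 were higher and 0 lower, beside 845 and 385 of 3133 genes, and the median was 0.91. The ribosomal proteins summed to 166486 CPM in the null and 126377 in the control library.

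Several genes at the extremes of the ranking had most of their UMIs in mixed barcodes. Saa3 itself and the marker lists, with Vcam1, C1qa, C1qc and Lyz2 among them, define the mixed barcodes. The loss of such genes without those barcodes thus follows in part from the definition. Ordered by whichever end of the interval lies closer to 1, the 15 highest genes were Saa3, Ifi44, AA467197, Cd274, Gbp2, H2-T22, Gbp3, Trafd1, Olfr56, Cxcl10, Ifi47, Apol9b, Ifit1, Gbp5 and Rtp4. Saa3, an acute-phase serum amyloid A gene, had 2152 and 2 UMIs, but 98.6% of the null UMIs were in 5 barcodes, and 30 and 1 remained without mixed barcodes. AA467197 had 357 and 6 UMIs, 96.9% of the null ones in 5 barcodes, and 5 and 5 without mixed barcodes. The others on that list were spread over 53 to 262 null barcodes. The 15 lowest were Mcpt8, Prss34, Vcam1, Mrc1, Trf, Cxcl12, Igfbp5, C1qa, Lpl, Ccl6, Fcna, Lyz2, Cd5l, C1qc and Dclk2. The mast cell and basophil proteases Mcpt8 and Prss34 had 428 and 821 UMIs in the control library, 99.3% and 98.4% of them in 5 barcodes, against 0 and 2 in the null library. Stromal Cxcl12 and Igfbp5 were alike, with 0 null UMIs. Vcam1, the adhesion molecule of the central macrophage, had 2 UMIs in the null and 709 in 115 control barcodes, and 0 and 58 without mixed barcodes. C1qa, a complement gene of macrophages, had 6 and 623 UMIs. Dclk2 differed from these, with 3 and 216 UMIs in 3 and 158 barcodes and 3 and 202 UMIs without mixed barcodes.

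Without mixed barcodes 3077 genes were counted, 420 of them (13.6%) 2-fold higher and 794 (25.8%) lower, so the counts hardly moved, while all but Dclk2 and Lyz2 of the 15 lowest genes gave way to others. Those then lowest, chosen after the values were seen, included Col5a1 (0 and 173 UMIs over all members), Dclk2, Zmynd8 (8 and 359), the ciliary transport gene Ift140 (32.4 and 411 CPM, 12.7-fold lower, 9.68 to 17.0), the elongation factor 2 kinase gene Eef2k (16.4-fold), the chromatin remodelling subunit gene Smarcb1 (22.5-fold), and the erythroid long noncoding RNA Redrum (3 and 160 UMIs). The mitochondrial genes Mrpl40, Mrpl42 and Timm13 were also among them, and Lyz2 and Retnlg, markers of myeloid cells, remained with 6 and 228 and 3 and 149 UMIs.

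**Figure D4:**
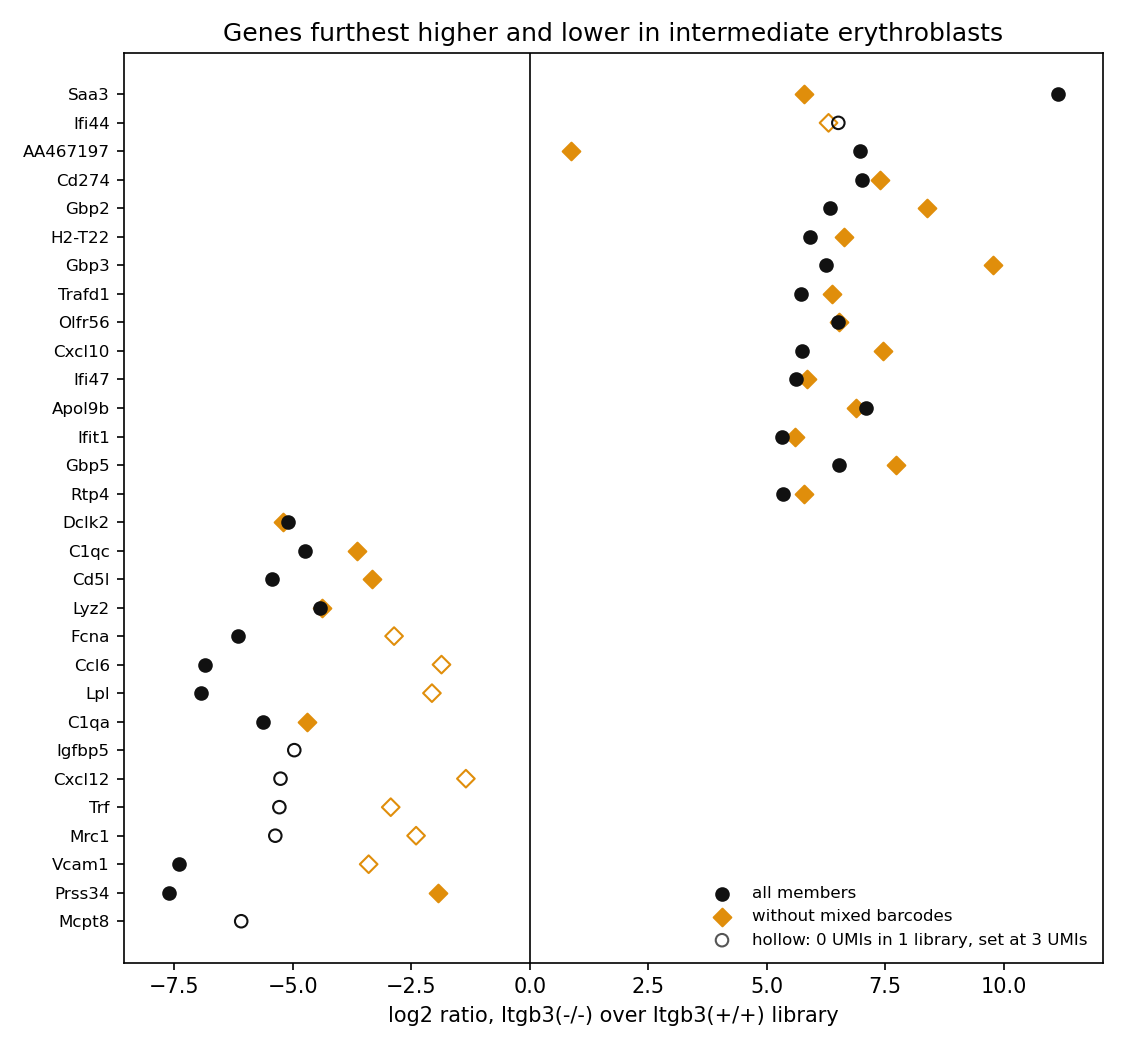
The 15 highest and 15 lowest genes, with the log2 ratio of the null over the control library on the x axis, over all members (black circles) and without mixed barcodes (orange diamonds, omitted under 10 UMIs). Hollow marks set a library with 0 UMIs at 3 UMIs. Most interferon genes keep or extend their ratio. Saa3, AA467197 and most macrophage, basophil and stromal genes at the bottom move towards 0, Lyz2 going only from -4.43 to -4.37. Saa3 and marker genes of other cells define the mixed barcodes, so their shift is partly set by that choice.

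The neighbouring stages were compared in the same way. They too held unequal RNA of other cells, whose part in the values was not tested. In low-hemoglobin barcodes megakaryocyte markers were at 9.33 CPM in the null and 782 in the control library, monocyte and macrophage markers at 7.11 and 295, and basophil and mast cell markers at 201 and 18.4. In late erythroblasts monocyte and macrophage markers were at 100.3 and 1609.9, and neutrophil markers at 1545 and 4167. In low-hemoglobin barcodes 7.96% of 3279 genes were 2-fold higher and 12.9% lower, and in late erythroblasts 22.5% and 30.1% of 2080 genes, against 13% and 25.1% in the intermediate stage. The medians of all genes were -0.20, -0.58 and -0.47 from the earliest to the latest stage. The antiviral list had medians of 3.81, 3.54 and 4.71 at these stages. The interferon gamma list lay 5.25, 5.24 and 5.54 above all genes, and MHC class I 2.98, 3.73 and 3.82. Relative to all genes, erythroid transcription factors were at -0.25 in the low-hemoglobin, -0.69 in the intermediate and -1.08 in the late stage. Mitosis genes were at -0.13, 0.87 and -0.47, a difference between stages that was not tested. In the late stage 9 of 19 of them were 2-fold lower. Ribosomal proteins lay 0.47, 0.97 and 0.02 above all genes, and the p53 and apoptosis list 0.45, 1.00 and 2.65. Car1 was 2.01-fold higher in the low-hemoglobin stage, 4.52-fold lower in the intermediate and 6.91-fold lower in the late stage. Cpox was 1.61-fold lower in the low-hemoglobin and 2.97-fold lower in the late stage, against 4.06-fold here. Epb42 was 11.3-fold and 5.54-fold lower, and Rhag 2.69-fold and 1.84-fold higher, so these 2 kept their direction at all 3 stages. The stages are parts of the same 2 libraries and are therefore not independent of each other.

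**Figure D5:**
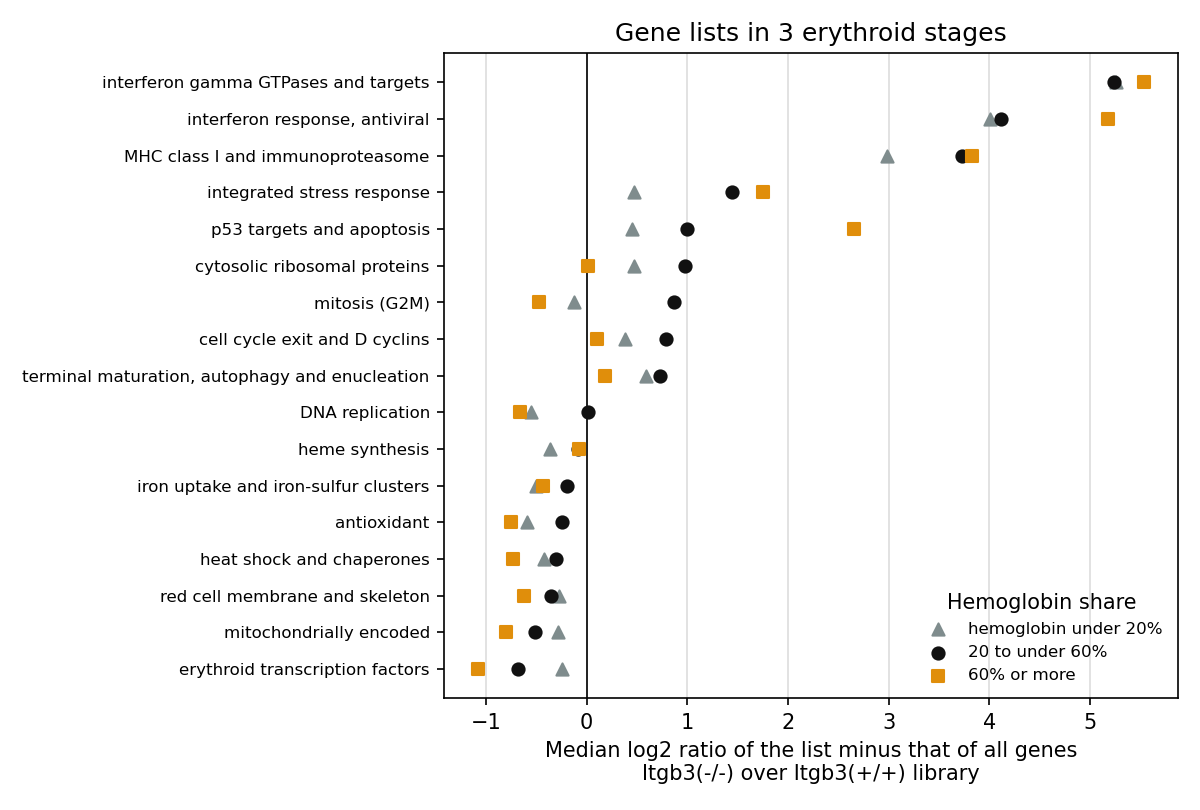
Median log2 ratio of 17 gene lists (null over control library) minus that of all genes in the same stage, for barcodes with under 20% hemoglobin (grey triangles), 20 to under 60% (black circles) and 60% or more (orange squares). The antiviral, interferon gamma and MHC class I lists lie far to the right at every stage, from 2.98 to 5.54, and the erythroid transcription factors lie below 0 at every stage.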

How the data were processed

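Droplet 3′ single-cell RNA libraries of whole mouse marrow, 1 per genotype, were analysed. The values are raw UMI counts per gene and barcode as deposited, made by the authors with Cell Ranger 3.0 (software version 3.1.0 per the file headers). Seurat and mm10 are also named in the submitters' processing notes. The libraries held 44694854 and 79192158 UMIs. Barcodes were selected as stated in the report, UMIs were summed over members, and ratios were taken per 1000000 UMIs outside the 4 globins (CPM), with exact conditional 95% intervals. Levels in a group of barcodes have exact Poisson and shares exact Clopper-Pearson intervals. A gene counted as 2-fold different only if it had 30 UMIs in total and 50 CPM in 1 library or more. No genotype test was possible.

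The members and gene lists were chosen with earlier results of these data known, and the resident macrophage, basophil and stromal lists and the rule for mixed barcodes after seeing these values. Named genes were the 15 highest and 15 lowest by the interval end closer to 1 (predicted genes, immunoglobulin segments, Xist, Y-linked genes and genes of the selection left out), those with most UMIs or largest ratio of each list, list members with 30 UMIs, and the genes of the selection and the design. Gene coordinates are of GRCm38 from GENCODE vM21, in which 30934 of 31053 gene IDs were found. Promoters are from RefSeq, GRCm38.p6. Some list members and 1 gene of the low-hemoglobin rule are not reported here. Alternatives were TMM factors, no level minimum, other hemoglobin limits, thinning, weighting and leaving out mixed or doublet barcodes. Intervals and ratios were tested on simulated data. Python 3.11.15, NumPy 2.4.6, SciPy 1.17.1, pandas 2.3.3, scanpy 1.11.5 (Scrublet), matplotlib 3.10.9 and, for TMM factors only, R 4.3.3 with edgeR 4.0.16 were used.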

Additional observations from a re-analysis of the deposited data

Results flagged for a closer look

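Car1, the carbonic anhydrase of early erythroid cells, differed in opposite directions between stages. In intermediate erythroblasts its log2 ratio of the null over the control library was -2.18, with 164 UMIs against 1560. Among low-hemoglobin barcodes it was higher in the null library, with a log2 ratio of 1.01 and 6608 against 12331 UMIs. Car1 is one of the genes that chose the low-hemoglobin barcodes, so its level there is partly set by that choice. With 1 library per genotype the difference between the stages was not tested.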

How the results depend on the processing

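The log2 ratio of the members' share was 0.08, and -0.33 without the lineage limits. Genes 2-fold higher numbered 416, and 845 with TMM factors, 1278 with no level minimum and 187 at 4-fold. Genes 2-fold lower numbered 806, and 385, 3977 and 221 under the same settings. The antiviral median of 3.54 was 4.19 without mixed barcodes, and the membrane median of -0.94 was -0.42 with TMM. The transcription factor median of -1.26 was -0.75 with TMM and -0.89 after thinning to 500 UMIs. The mitosis median of 0.29 was 0.81 with TMM, 0.15 with hemoglobin bins weighted equally, 0.16 as a mean over barcodes and 0.17 after thinning. Apart from what each setting changes by construction, the cause was not tested. Over gene lists, 237 of 241 values under the alternatives kept their sign, and over single genes 1141 of 1174. Sod2 had a log2 ratio of 0.30, and -2.68 without mixed barcodes. No paired analysis was possible because each genotype has 1 library. Differences between libraries and between genotypes cannot be told apart, and the spread between animals is not covered by any interval. Ratios of genes under 30 UMIs, Itgb3 among them, are not resolved at this depth.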

Other observations

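Glycolysis genes had a median log2 ratio of -0.23 over 12 genes with 30 UMIs, which was 0.28 with TMM factors. Cholesterol synthesis and uptake genes, of interest in an Apoe(-/-) background, were scarce in the erythroblasts, summing to 190.2 CPM in the null and 236 in the control library, and 1 of 15 reached the level minimum. Megakaryocyte and platelet markers, the lineage in which Itgb3 is best known, summed to 6.00 and 69.9 CPM, and stem and progenitor markers to 10.8 and 23.7. Basophil and mast cell markers summed to 1.80 and 401, and stromal markers to 6.00 and 143.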
